A study of Mus musculus with 18 samples.

Results

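The 40 genes described here belong to the bone morphogenetic protein (BMP) and transforming growth factor beta (TGF-beta) pathway, and they were chosen by a pattern of gene symbols from a table of 55416 genes. They comprise 6 BMP ligands (Bmp2 to Bmp7), 5 genes for TGF-beta and activin ligands (Tgfb1, Tgfb2, Tgfb3, Inhba, Inhbb), 4 latent TGF-beta binding proteins (Ltbp1 to Ltbp4) and 6 type I receptors (Bmpr1a, Bmpr1b, Tgfbr1, Acvr1, Acvr1b, Acvr1c). The others are 5 type II or type III receptors (Bmpr2, Tgfbr2, Acvr2a, Acvr2b, Tgfbr3), 6 receptor-regulated or common Smads (Smad1 to Smad5, Smad9), 3 intracellular or membrane inhibitors (Smad6, Smad7, Bambi) and 5 secreted antagonists, among them Nog, Chrd, Grem1 and Fst. No measured value entered the pattern, though it was chosen with earlier results of these data known. All 40 passed the filter on low counts, which asks for reads in as few as 3 of the 18 libraries, so a gene present in 1 group could pass.

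RNA was sequenced from neocortex of wild-type C57BL/6J mice at E14.5, where E counts days of embryonic development. Hemispheres of the brain spent 24 h in HERO, a culture method that rotates the tissue. Controls (Ctl) received no addition, and treated cultures (Epi) received 50 ng/mL of human recombinant EPIREGULIN, a secreted ligand of the EGF family. From each, 3 populations were obtained: radial glia (RG), the stem cells that line the ventricle, intermediate progenitors, their dividing daughters (IP), and neurons (N). This gives 6 groups of 3 libraries that the labels call biological replicates. The labels do not say whether a replicate is an embryo, a litter or a pool, and the sources used here do not give the method that separated the populations.

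BMP and TGF-beta ligands are secreted dimers that bind a type II receptor, which then activates a type I receptor. The activated type I receptor phosphorylates a receptor-regulated Smad: Smad1, Smad5 and Smad9 carry BMP signals, and Smad2 and Smad3 carry TGF-beta and activin signals. These join Smad4 and enter the nucleus. TGF-beta is secreted in a latent form held in the matrix by Ltbp proteins, while noggin, chordin, gremlin and follistatin bind ligands outside the cell. In the embryonic forebrain, BMPs from the dorsal midline are known to pattern the cortex, and BMP and TGF-beta signals act on the balance between progenitor division and neuron formation.

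The DNA in front of 4 members that carry the results below is shown first: Tgfb2, which was high in RG, Inhba, which rose at each step to N, Bmp3, which was highest in IP, and Acvr1b, the type I receptor with the highest mean level per kilobase in IP and in N. Each sequence is the 250 bases before the start of the gene's canonical transcript in GENCODE M39 on GRCm39, read 5′ to 3′ on the strand of the gene. Capitals mark matches, on either strand, to 3 motifs: GGCGCC, a GC-rich Smad motif that is its own reverse complement, CAGACA, which holds the Smad box, and CAGATG, an E-box known for proneural bHLH factors. Matches to different motifs may overlap one another.
Tgfb2, chr1:186438295-186438544, minus strand: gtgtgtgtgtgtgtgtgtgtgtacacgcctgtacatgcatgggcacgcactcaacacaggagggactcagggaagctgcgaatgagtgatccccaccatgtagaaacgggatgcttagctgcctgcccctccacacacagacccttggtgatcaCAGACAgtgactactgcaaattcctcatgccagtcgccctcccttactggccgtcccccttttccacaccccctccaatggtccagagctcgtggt
Inhba, chr13:16188733-16188982, plus strand: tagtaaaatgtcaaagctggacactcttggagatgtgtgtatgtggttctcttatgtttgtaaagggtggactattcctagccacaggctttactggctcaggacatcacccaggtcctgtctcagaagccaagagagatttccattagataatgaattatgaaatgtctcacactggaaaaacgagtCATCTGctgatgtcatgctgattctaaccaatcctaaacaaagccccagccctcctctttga
Bmp3, chr5:99002018-99002267, plus strand: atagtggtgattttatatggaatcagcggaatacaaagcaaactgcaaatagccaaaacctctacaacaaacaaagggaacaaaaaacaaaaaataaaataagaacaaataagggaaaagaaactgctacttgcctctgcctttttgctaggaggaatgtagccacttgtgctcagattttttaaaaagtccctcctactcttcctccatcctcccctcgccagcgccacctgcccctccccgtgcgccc
Acvr1b, chr15:101071671-101071920, plus strand: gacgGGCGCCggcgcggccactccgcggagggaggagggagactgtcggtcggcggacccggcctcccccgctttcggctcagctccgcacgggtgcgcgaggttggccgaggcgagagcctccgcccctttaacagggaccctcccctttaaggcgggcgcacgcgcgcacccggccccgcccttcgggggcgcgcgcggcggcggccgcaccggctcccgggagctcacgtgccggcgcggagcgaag

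The Tgfb2 window held CAGACA with its first base 96 bases before the start. The Inhba window held the E-box as CATCTG 62 bases before the start, the Acvr1b window held GGCGCC 246 bases before the start, and the Bmp3 window held none of the 3. The Tgfb2 window overlaps an exon of Gm29491, a long noncoding RNA on the other strand, and the Inhba window lies inside the limits that the table gives for the gene, whose canonical start is not its first. Over the same windows of 21757 genes, GGCGCC was found in 9.32%, CAGACA in 15.6% and CAGATG in 13%. Among the members it was 11 of 40 for GGCGCC (27.5%), 9 of 40 for CAGACA (22.5%) and 4 of 40 for CAGATG (10%). The 11 with GGCGCC were Ltbp4, Bmpr1a, Tgfbr1, Acvr1, Acvr1b, Bmpr2, Smad2, Smad4, Smad5, Smad9 and Grem1, so 5 were type I or type II receptors and 4 were Smads. The members' windows had a median GC content of 65.8% and a median of 16.5 CpG dinucleotides, against 53.2% and 8 over all windows, and GGCGCC itself holds a CpG, so base composition moves with that count. The printed windows ranged from 1 CpG and 43.2% GC in Inhba to 42 CpGs and 78.4% GC in Acvr1b.

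Library totals ranged from 15.5 to 34.2 M counts, and the 40 genes together took 0.108% to 0.158% of them. Levels are given as CPM, which are read counts scaled to a common library total, with TMM factors, and levels of different genes are compared only per kilobase (kb) of exon. The labelled populations were checked against marker genes. Summed CPM of 12 radial glia markers was 4420 to 5486 in Ctl RG, 396 to 422 in Ctl IP and 265 to 308 in Ctl N. Of 12 neuron markers it was 317 to 380 in Ctl RG, 9797 to 10833 in Ctl IP and 10117 to 10351 in Ctl N, so the neuron markers were as high in the IP libraries as in the N libraries. Eomes, the defining factor of intermediate progenitors, averaged 17.4, 122 and 10.02 CPM in RG, IP and N of control cultures, while its list of 12 markers summed to 1008 to 1275 in Ctl IP and 1057 to 1420 in Ctl N. Markers of Cajal-Retzius cells, early neurons of the cortical surface, summed to 20.4 to 23.0 in Ctl RG, 283 to 348 in Ctl IP and 38.6 to 65.4 in Ctl N. Interneuron markers (10 genes) summed to 8.66 to 24.3, 118 to 227 and 12.4 to 169 in the same groups. Those of choroid plexus and cortical hem (11 genes, mostly Rspo3 in IP and N) summed to 20.0 to 42.3, 107 to 141 and 47.6 to 61.5. Mural markers (8 genes, mostly Notch3 in RG) summed to 99.9 to 103 in Ctl RG and to 7.30 to 13.7 in Ctl IP and Ctl N. Those of the meninges (10 genes) summed to 19.3 to 19.9 in Ctl RG and to 8.53 to 12.7 in Ctl IP and Ctl N. The part of the last 2 lists in genes high in RG was not tested. Erythroid markers (8 genes) summed to 32.5 to 65.1 in Ctl RG, 46.2 to 87.4 in Ctl IP and 86.9 to 224 in Ctl N. Of 7 tested, 6 were called higher in Ctl N than in Ctl RG (21% of all genes). In Epi N against Epi RG, 3 of 7 were (21.4% of all genes). The part of erythroid cells in genes high in N, such as Inhba, was not tested. Markers of endothelium (10 genes) summed to 11.1 to 17.5 over these 9 libraries and those of macrophages and microglia (10 genes) to 6.68 to 10.2. None of the listed markers averaged 0 in any group. In a bulk library, fewer cells of a type and less RNA per cell cannot be told apart.

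The first question was how the pathway differs between the populations of control cultures. Between RG and IP, 27 of the 40 members changed, 11 higher and 16 lower in IP, where 41.3% of all 29355 genes tested changed (22.7% higher and 18.6% lower). Between IP and N, 13 members changed, 3 higher and 10 lower in N, against 10.3% of all genes (2.6% higher and 7.74% lower). Between RG and N, 25 changed, 10 higher and 15 lower in N, against 38.7% (21% higher and 17.7% lower). These calls are at an adjusted p under 0.05 by edgeR's quasi-likelihood test with Benjamini-Hochberg adjustment over all genes. The median log2 fold change of the members was -0.24 from RG to IP, -0.24 from IP to N and -0.39 from RG to N, beside -0.06, 0.03 and 0.06 for all genes. When replicate numbers entered the fit as a block, N against IP called 17 members (5 higher and 12 lower) and 15.8% of all genes. With upper-quartile scaling it called 4 higher and 8 lower. As shares, 67.5%, 32.5% and 62.5% of the members were called in the 3 comparisons, above the share of all genes each time. These shares were not tested against it.

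**Figure D1:**
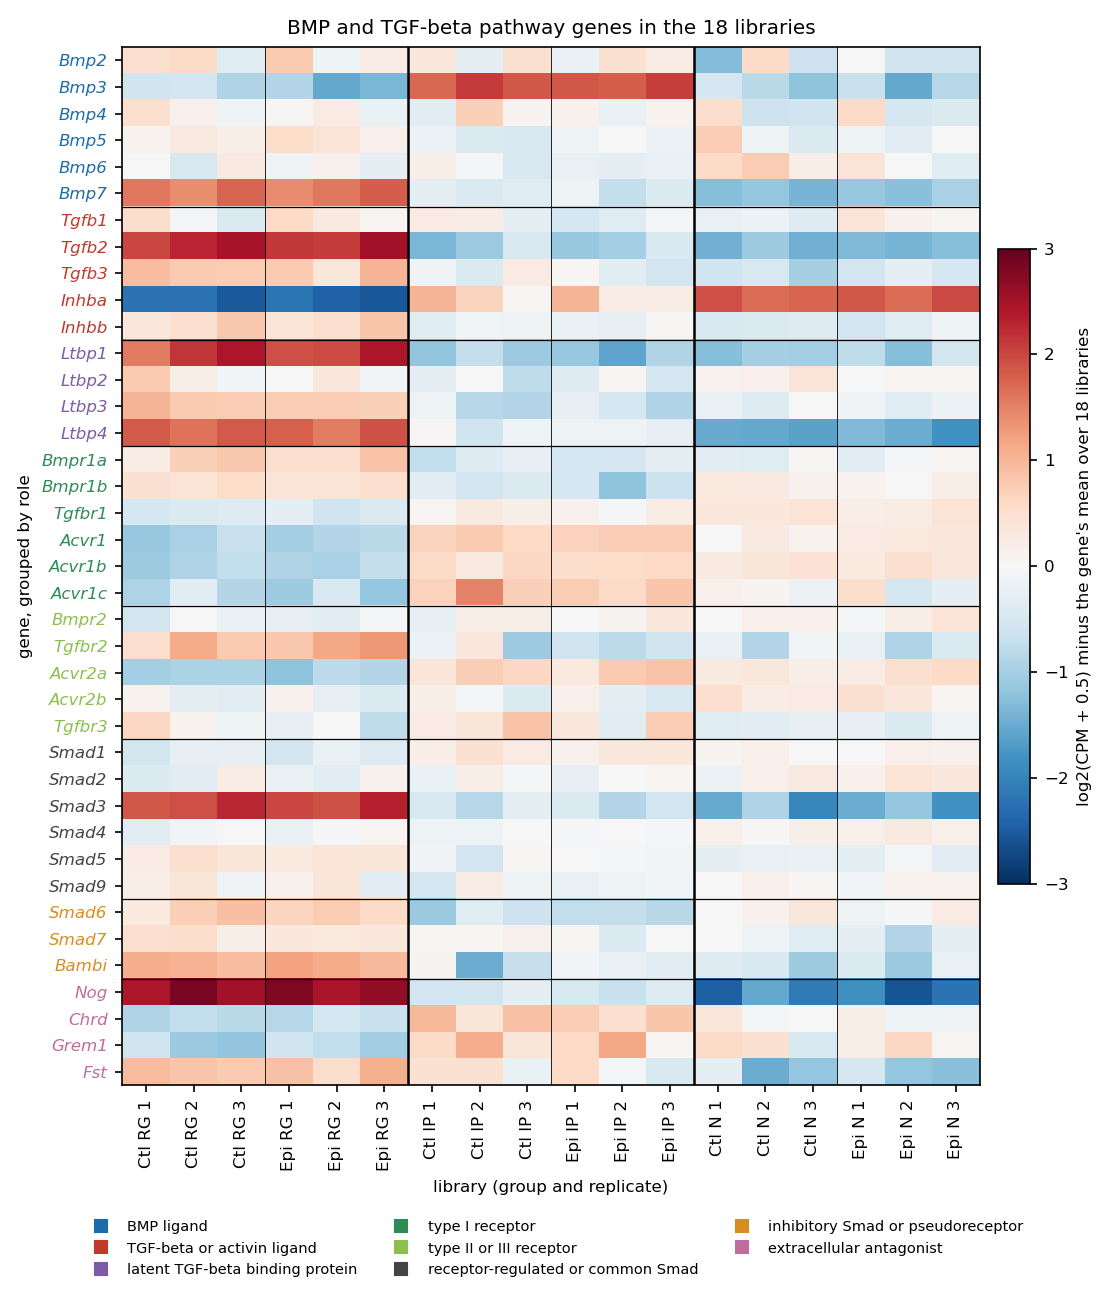
Log2(CPM + 0.5) of each of 39 of the 40 genes in each of the 18 libraries, minus the gene's own mean over the libraries, with genes ordered by role and libraries by group. Nog, Tgfb2, Ltbp1, Ltbp4 and Smad3 stand high in the 6 RG libraries, and Inhba is low in RG and highest in N.

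Among the BMP ligands, 2 of 6 changed between RG and IP (41.3% of all genes), in opposite directions. Bmp7, a ligand of many developing epithelia, stood at 10.5, 9.16 and 11.9 CPM in the 3 Ctl RG libraries, 2.51, 2.25 and 2.4 in Ctl IP and 1.03, 1.16 and 0.908 in Ctl N. The 3 groups did not overlap, and the level was lower at each step. The log2 fold change was -2.14 ± 0.21 from RG to IP (adjusted p = 1.55e-08, edgeR) and -1.21 ± 0.24 from IP to N (adjusted p = 0.00113). Per kb, Bmp7 was the highest BMP ligand in Ctl RG, and in Ctl N its mean lay under the level that 95% of 1103 olfactory receptor genes, which neocortex should lack, stayed under (0.279 CPM per kb).

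Bmp3 (ENSMUSG00000029335, chr5:99002274-99032255) encodes a divergent BMP known to counter other BMPs in bone. Its level was 2.27, 2.35 and 1.75 CPM in Ctl RG, 13.2, 17.4 and 14.7 in Ctl IP and 2.43, 1.88 and 1.3 in Ctl N. All 3 IP libraries stood far above every RG and N library, and RG and N overlapped. It was 7.12-fold higher in IP than in RG (log2 2.83 ± 0.27, adjusted p = 1.02e-08) and fell by 3.01 on the log2 scale from IP to N (SE 0.28, adjusted p = 1.14e-07). In treated cultures its values were 1.76, 0.943 and 1.12 in RG, 14.8, 14.2 and 17 in IP and 2.11, 0.929 and 1.8 in N, so the IP libraries stood apart again. The Bmp3 mean per kb was under the olfactory level in Ctl N, Epi RG and Epi N. The summed markers of Cajal-Retzius cells and of interneurons, given above, also had their highest mean in IP, though interneuron sums of Ctl IP and Ctl N overlapped. The sum for choroid plexus and hem was highest in IP too, but was mostly Rspo3 there. Of its 11 genes, 1 was called higher and 3 lower in Ctl IP than in Ctl RG (22.7% and 18.6% of all genes). The part of these cells in the Bmp3 result was not tested.

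The remaining 4 BMP ligands passed no test between populations of control cultures and were low. Bmp2 and Bmp4, the classic midline ligands, ranged from 0 to 1.62 CPM and from 0.166 to 1.19 CPM over the 18 libraries. Bmp5 and Bmp6 ranged from 0.436 to 1.68 and from 0.391 to 1.61 CPM. In Ctl RG all 4 had a mean per kb under the olfactory level (0.257 CPM per kb there), and in Ctl N Bmp2, Bmp4 and Bmp5 did. Reads of Bmp6 can also come from Txndc5, which overlaps it on the other strand and had 20528 counts over all libraries against 351 for Bmp6, since the libraries are not stranded.

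Among the TGF-beta and activin ligands, Tgfb2 and Tgfb3 were highest in RG and the genes for activin subunits moved in opposite directions. Tgfb2 (ENSMUSG00000039239, chr1:186354989-186438186) stood at 80.8, 98 and 111 CPM in Ctl RG, 7.38, 9.0 and 14.1 in Ctl IP and 6.96, 9.15 and 6.92 in Ctl N. Each RG library was above all IP and N libraries, and IP and N overlapped. The fold change from RG to IP was -3.24 ± 0.22 (log2, adjusted p = 3.67e-11), and that from IP to N, -0.42 ± 0.22, did not pass (adjusted p = 0.303). Treated cultures gave 87.2, 86.6 and 116 CPM in RG, 8.65, 9.57 and 14.2 in IP and 7.62, 7.21 and 7.87 in N. The RG libraries again stood above all others, and there the IP to N change passed only with the replicate block (-0.51 without it, adjusted p = 0.164, and -0.48 with it, adjusted p = 0.0381).

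Tgfb3 was lower by the same pattern at a smaller level, from 5.28 ± 0.322 CPM in Ctl RG to 2.6 ± 0.733 in Ctl IP and 1.53 ± 0.365 in Ctl N (SD, n = 3 each), and RG to IP passed at -1.0 ± 0.26 (adjusted p = 0.00358). It overlaps Ttll5, which had 11634 counts over the libraries against 1526. Tgfb1, between 0.543 and 1.79 CPM over all libraries, passed no comparison of control populations. In treated cultures its IP against RG value of -0.93 ± 0.38 was just short (adjusted p = 0.0508) and passed with the block (-0.88 ± 0.34, adjusted p = 0.0378).

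Inhba (ENSMUSG00000041324, chr13:16186436-16206206) encodes the subunit of activin A. It was counted at 2.29, 2.29 and 1.75 CPM in Ctl RG, 25.7, 20.0 and 13 in Ctl IP and 49.2, 41.1 and 42.8 in Ctl N. The 3 groups did not overlap and rose from RG to IP to N. The log2 fold change was 3.22 ± 0.25 from RG to IP (adjusted p = 4.18e-10), 1.18 ± 0.22 from IP to N (adjusted p = 0.000563) and 4.40 ± 0.26 from RG to N, or 21.1-fold. Inhba was the single member called higher at both steps. Treated libraries had 2.33, 1.93 and 1.73 CPM in RG, 25.6, 14.7 and 14.48 in IP and 46.8, 40.8 and 50.8 in N, in the same order and without overlap.

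Inhbb, the subunit of activin B, had the opposite slope. Averaged over the 18 libraries it was the highest ligand per kb, but the order differed by population. In Ctl RG Tgfb2 was above it, at 15.5 ± 2.46 against 10.3 ± 1.81 CPM per kb, and in Ctl N Inhba was above it, at 6.24 ± 0.599 against 5.19 ± 0.131. It stood at 38, 41.8 and 52.9 CPM in Ctl RG, 23.4, 28.6 and 26.9 in Ctl IP and 21.8, 22.3 and 22.9 in Ctl N. All RG libraries were above all others, IP against RG was -0.75 ± 0.15 (log2, adjusted p = 0.000325), and the IP and N libraries did not overlap either, though their difference did not pass (adjusted p = 0.444). Per kb, the ratio of Inhba to Inhbb was 0.0298 ± 0.00873 in Ctl RG, 0.46 ± 0.188 in Ctl IP and 1.2 ± 0.14 in Ctl N (SD, n = 3 each). Inhbb exceeded Inhba in RG and IP, and in N Inhba was the higher. Inha, the inhibin subunit that pairs with either one and is no member, averaged 20.2 ± 3.42, 64.6 ± 7.46 and 48.7 ± 2.77 CPM, with a log2 rise of 1.67 ± 0.15 from RG to IP (adjusted p = 3.42e-09).

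**Figure D2:**
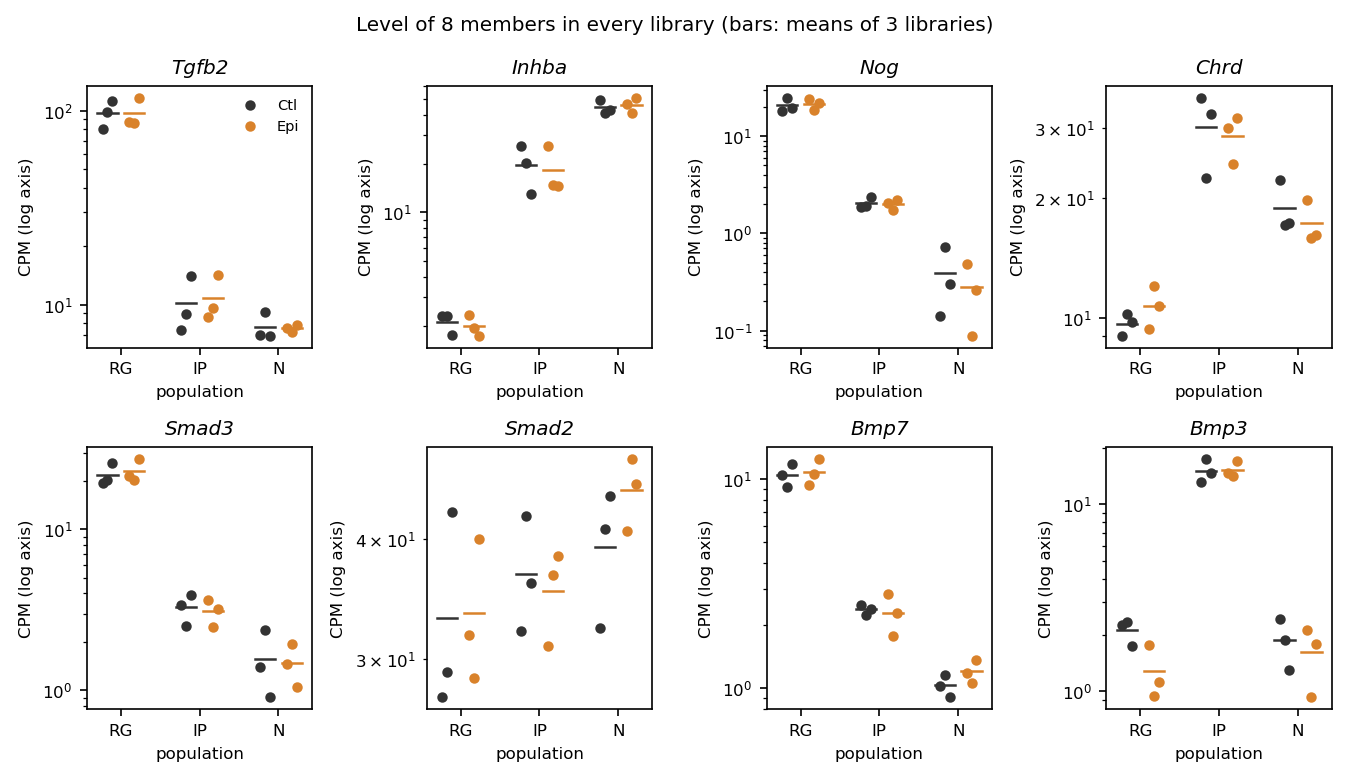
CPM of 8 members in each of the 18 libraries, by population and treatment, with bars at the means of 3 libraries. Tgfb2 and Nog are high in RG, Bmp3 is high in IP and Inhba rises from RG to N, and control and treated points of a population overlap in range.

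All 4 latent TGF-beta binding proteins were called lower in Ctl IP than in Ctl RG, beside 18.6% of all genes. The Ltbp2 call was lost in several settings given below. Between Epi IP and Epi RG, 3 of the 4 were called lower (19.6% of all genes). Ltbp4, which anchors latent TGF-beta to elastic matrix, stood at 138, 119 and 138 CPM in Ctl RG, 39, 24.9 and 34.7 in Ctl IP and 13.1, 12.8 and 12.3 in Ctl N. The groups did not overlap, and N was the lowest with the smallest spread. The change was -2.0 ± 0.15 from RG to IP (adjusted p = 2.23e-10) and -1.37 ± 0.16 from IP to N (adjusted p = 1.39e-06) on the log2 scale. Ltbp1 had 24.7, 37 and 45.3 CPM in Ctl RG, 3.27, 4.7 and 3.52 in Ctl IP and 3.04, 3.77 and 3.67 in Ctl N. Its RG libraries were above all the rest, which overlapped each other, and RG to IP gave -3.23 ± 0.26 (adjusted p = 4.33e-10).

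Ltbp3 fell from 88 ± 9.49 CPM in Ctl RG to 31.8 ± 9.95 in Ctl IP (log2 -1.47 ± 0.18, adjusted p = 5.61e-07) and was at 42.1 ± 5.93 in Ctl N, where it was called above IP only with the replicate block (0.43 ± 0.14, adjusted p = 0.0454, against 0.202 without it). The ratio of Ltbp4 to Ltbp3 per kb was 1.87 ± 0.199 in Ctl RG, 1.32 ± 0.296 in Ctl IP and 0.382 ± 0.0594 in Ctl N. Ltbp4 was thus above Ltbp3 in RG and below it in N. Ltbp2, which unlike the others is not known to hold latent TGF-beta, had 3.07, 1.84 and 1.47 CPM in Ctl RG and 1.2, 1.59 and 0.726 in Ctl IP. Its mean per kb in Ctl IP was under the olfactory level. The groups overlapped, and its call (-0.91 ± 0.33, adjusted p = 0.0311) was lost without Ctl RG replicate 1 (adjusted p = 0.277), Ctl IP replicate 1 (0.064) or Ctl IP replicate 3 (0.185), with no filter on low counts (0.0697) and with the compared groups alone (0.0786). Ltbp1 overlaps Gm6276, a pseudogene on the same strand, with 1703 counts over the libraries against 7553.

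The 6 type I receptors all changed between RG and IP, 4 higher and 2 lower in IP (22.7% and 18.6% of all genes). Acvr1b, the type I receptor of activin and nodal, stood at 35.9, 39.9 and 45.6 CPM in Ctl RG, 113, 91.5 and 117 in Ctl IP and 91.7, 98.8 and 103.6 in Ctl N. The RG libraries were all below the rest, and IP and N overlapped, with 1.41 ± 0.12 from RG to IP (adjusted p = 1.72e-09). In Ctl RG Tgfbr1 was the highest type I receptor per kb, at 11.9 ± 0.604 CPM per kb against 8.52 ± 1.03 for Acvr1b, and in Ctl N their means were alike, at 20.6 ± 0.781 and 20.6 ± 1.26. Acvr1, a type I receptor for BMPs, had 23.3, 26.5 and 32.9 CPM in Ctl RG, 83.4, 89.8 and 78.8 in Ctl IP and 52, 62.8 and 56.1 in Ctl N. Its 3 groups did not overlap and IP was the highest. It was 1.61 ± 0.12 higher in IP than in RG (adjusted p = 2.99e-10) and -0.56 ± 0.12 from IP to N (adjusted p = 0.00269). Tgfbr1, the TGF-beta type I receptor, rose from 78.8 ± 4.0 CPM in Ctl RG to 121 ± 8.82 in Ctl IP (log2 0.62 ± 0.11, adjusted p = 6.35e-05) and was at 136 ± 5.17 in Ctl N.

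Acvr1c, a receptor for nodal and activins, was low, at 1.56, 2.63 and 1.62 CPM in Ctl RG, 5.78, 10.5 and 5.88 in Ctl IP and 3.83, 3.66 and 2.98 in Ctl N. The 3 groups did not overlap, and IP was the highest. In Ctl RG and Epi RG the Acvr1c mean per kb was under the olfactory level. RG to IP gave 1.95 ± 0.33 (adjusted p = 3.42e-05), while the calls from IP to N (-1.07 ± 0.32, adjusted p = 0.031) and from RG to N (adjusted p = 0.039) were each lost without any of 4 single libraries: Ctl IP replicate 2 (0.199) and Ctl N replicates 1, 2 and 3 (0.057, 0.0706 and 0.128) for the first, and Ctl RG replicates 1 and 3 (0.142 and 0.126) and Ctl N replicates 1 and 2 (0.102 and 0.0878) for the second. Both were also lost with upper-quartile scaling (0.0594 and 0.0596) and in limma (0.0692 and 0.0654), and the second with the stricter filter, a mean log2 CPM of at least 1 (0.0535).

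The 2 dedicated BMP type I receptors were lower in IP than in RG. Bmpr1a fell from 65.6 ± 13.3 CPM in Ctl RG to 31.5 ± 5.23 in Ctl IP (log2 -1.06 ± 0.17, adjusted p = 1.84e-05), with 37.1 ± 6.25 in Ctl N. Bmpr1b dipped in IP, with 11.1, 10.7 and 11.8 CPM in Ctl RG, 6.14, 5.09 and 5.66 in Ctl IP and 9.77, 9.54 and 8.64 in Ctl N. Every IP library was below every RG and N library, and both steps passed (-0.98 ± 0.18, adjusted p = 8.19e-05, then 0.72 ± 0.18, adjusted p = 0.00893). The ratio of Acvr1 to Bmpr1a per kb was 0.493 ± 0.0543 in Ctl RG, 3.16 ± 0.608 in Ctl IP and 1.82 ± 0.366 in Ctl N, so Bmpr1a was the more abundant of these BMP receptors in RG and Acvr1 in IP and N.

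**Figure D3:**
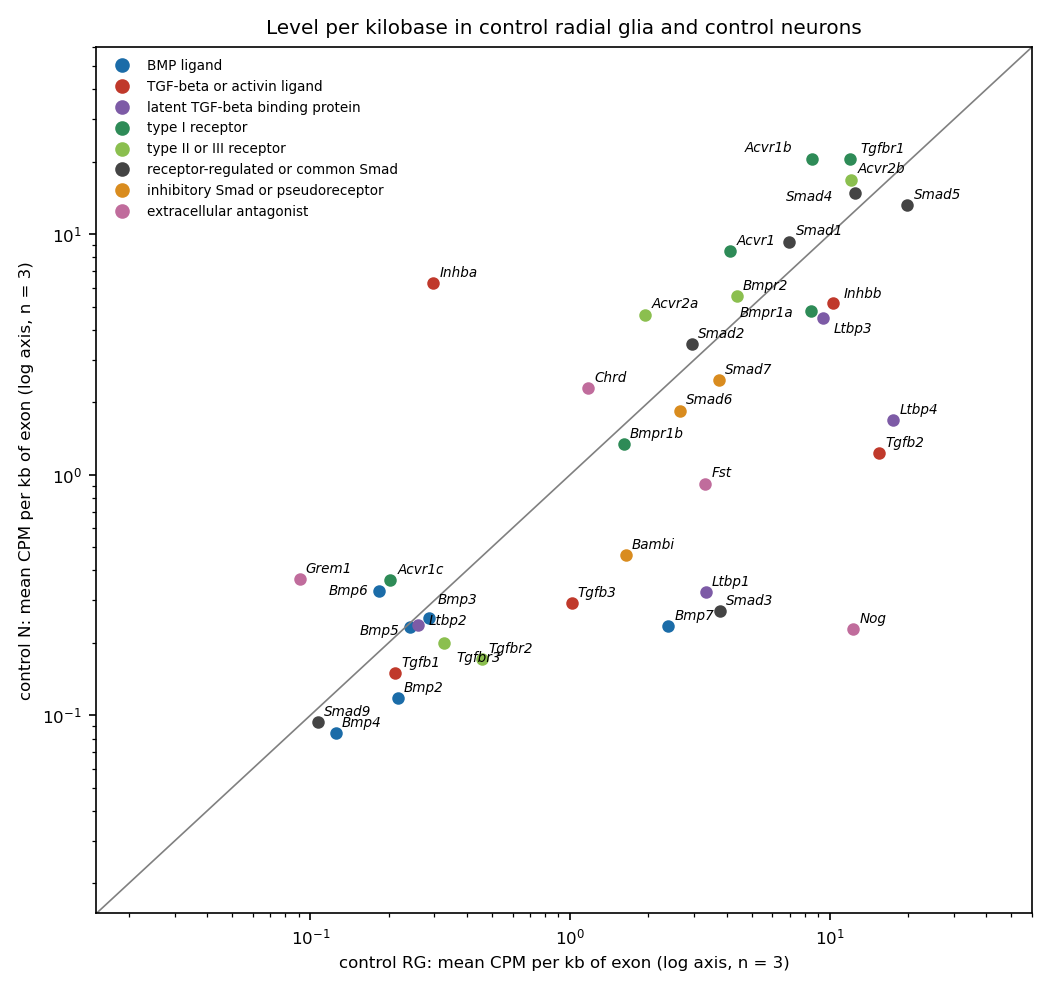
Mean CPM per kb of exon of each of 39 of the 40 genes in Ctl RG against Ctl N (3 libraries each, log axes), coloured by role, with the line of equal level. Inhba lies farthest above the line, and Nog, Smad3, Tgfb2 and Ltbp4 lie farthest below it.

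Of the type II and type III receptors, Acvr2a rose and Tgfbr2 fell from RG to IP, and the other 3 did not pass. Acvr2a, which binds activins and some BMPs, stood at 19, 19.9 and 19.9 CPM in Ctl RG, 49.7, 64.8 and 60.3 in Ctl IP and 46.6, 48.9 and 44.5 in Ctl N. The groups did not overlap, and the step from RG was 1.57 ± 0.15 (adjusted p = 1.49e-08). The lower level in N passed only with the replicate block (-0.31 ± 0.10, adjusted p = 0.0481, against 0.227 without it). Acvr2a overlaps Orc4, with 30545 counts over the libraries against 18338.

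Acvr2b, its paralog and the most abundant type II receptor per kb, had 160.4, 125 and 120.3 CPM in Ctl RG, 170.4, 147 and 113 in Ctl IP and 211, 176 and 178 in Ctl N. RG and IP overlapped and all N libraries were above both. N exceeded RG by 0.48 ± 0.18 (adjusted p = 0.0356), a call lost without Ctl RG replicate 2 (0.116) or 3 (0.127) or Ctl N replicate 1 (0.134), with upper-quartile scaling (0.112), with the stricter filter (0.107) and in DESeq2 (0.0507). N against IP passed only with the block (0.41 ± 0.09, adjusted p = 0.00141, against 0.199). Bmpr2, the BMP type II receptor, was at 79.2 ± 14.4, 96.7 ± 16.1 and 100.2 ± 6.4 CPM in RG, IP and N, and IP was called above RG only with the block (0.29 ± 0.10, adjusted p = 0.0203, against 0.138).

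Tgfbr2, the type II receptor of TGF-beta, was low throughout, at 3.14, 5.03 and 3.89 CPM in Ctl RG, 1.75, 2.71 and 0.69 in Ctl IP and 1.73, 0.887 and 1.9 in Ctl N. The RG libraries were all above the others, and IP against RG was -1.27 ± 0.37 (adjusted p = 0.00765), a call lost without Ctl IP replicate 3 (0.0604). In Ctl RG its level of 0.457 ± 0.108 CPM per kb compared with 11.9 ± 0.604 for Tgfbr1. In Ctl N, Epi IP and Epi N the Tgfbr2 mean per kb was under the olfactory level. Tgfbr3, the co-receptor betaglycan, ranged from 0.867 to 3.7 CPM over the 18 libraries, and N fell below IP only with the block (-1.05 ± 0.34, adjusted p = 0.0396, against 0.0604).

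Among the Smads, the TGF-beta and activin pair parted. Smad3 (ENSMUSG00000032402, chr9:63554049-63665276) stood at 19.5, 20.3 and 25.8 CPM in Ctl RG, 3.39, 2.51 and 3.92 in Ctl IP and 1.4, 2.38 and 0.908 in Ctl N. The 3 groups did not overlap, with RG the highest. RG to IP gave -2.72 ± 0.26 (adjusted p = 9.71e-09), and IP to N gave -1.11 ± 0.29 (adjusted p = 0.0133), where the call was lost without Ctl IP replicate 3 (0.0742) or Ctl N replicate 1 (0.0582) or 3 (0.112), in limma (0.0593) and with the compared groups alone (0.1). Smad2 was at 27.4, 29.1 and 42.8 CPM in Ctl RG, 32.1, 42.3 and 36 in Ctl IP and 32.3, 41 and 44.4 in Ctl N. Its groups overlapped, and IP against RG had a log2 value of 0.15 with a 95% interval of -0.21 to 0.51. The ratio of Smad3 to Smad2 per kb was 1.3 ± 0.115 in Ctl RG, 0.177 ± 0.0538 in Ctl IP and 0.0789 ± 0.0369 in Ctl N. Treated cultures gave 1.33 ± 0.0263, 0.173 ± 0.0488 and 0.064 ± 0.0171. The Smad3 mean in Ctl N, 0.270 CPM per kb, was under the olfactory level (0.279). The Ctl N ratio and the step from Ctl IP to Ctl N thus rest on few Smad3 reads.

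The BMP Smads moved in opposite directions by less. Smad1 rose from 64 ± 7.76 CPM in Ctl RG to 101 ± 9.77 in Ctl IP (log2 0.65 ± 0.12, adjusted p = 0.000105) and was at 85.4 ± 5.2 in Ctl N. Smad5, the highest Smad per kb in RG and IP, with Smad4 above it in N, fell from 141, 165 and 154 CPM in Ctl RG to 110.0, 79.7 and 123 in Ctl IP and stood at 99.6, 102 and 105 in Ctl N. All RG libraries were above the rest (log2 -0.55 ± 0.13 against IP, adjusted p = 0.0011). The Smad1 to Smad5 ratio per kb was 0.351 ± 0.0222, 0.853 ± 0.286 and 0.706 ± 0.0544 in RG, IP and N. Smad9, the third of this group, was at 0.199 to 0.786 CPM in the 18 libraries, under the olfactory level in every group. Smad4, the partner of all receptor-regulated Smads, averaged 90.5 ± 10.5, 92.9 ± 5.38 and 108 ± 6.0 CPM, with a 95% interval of -0.18 to 0.26 on the log2 scale for IP against RG.

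Of the 3 inhibitors, Smad6 and Bambi fell from RG to IP, and Smad7 passed only between RG and N. Smad6, which blocks BMP receptors and Smads, stood at 7.21, 9.78 and 11.2 CPM in Ctl RG, 2.39, 4.37 and 3.63 in Ctl IP and 5.8, 6.43 and 7.43 in Ctl N. IP was the lowest without overlap, RG and N overlapped, and both steps passed (-1.45 ± 0.22, adjusted p = 1.01e-05, then 0.94 ± 0.22, adjusted p = 0.00656, lost without Ctl IP replicate 1 at 0.0571). Smad7, a general inhibitor and the highest of these 3 per kb, was 18.9, 19.3 and 15.2 CPM in Ctl RG, 13.8, 13.9 and 14.52 in Ctl IP and 13.2, 11.8 and 10.2 in Ctl N. N was below RG without overlap (-0.60 ± 0.17, adjusted p = 0.00772, lost without Ctl N replicate 3 at 0.0509), and IP against RG did not pass (adjusted p = 0.129). Bambi, a receptor-like protein with no kinase domain, fell from 8.38 ± 0.499 CPM in Ctl RG to 2.47 ± 1.56 in Ctl IP (log2 -1.72 ± 0.33, adjusted p = 0.000142) and was at 2.37 ± 0.675 in Ctl N.

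The 2 classic BMP antagonists moved in opposite directions from RG to IP. Nog (ENSMUSG00000048616, chr11:89191464-89193158) encodes noggin, which binds BMPs and keeps them from their receptors. It stood at 18.3, 24.7 and 19.6 CPM in Ctl RG, 1.87, 1.92 and 2.36 in Ctl IP and 0.14, 0.721 and 0.303 in Ctl N. The groups did not overlap, and the level was lower at each step. The change was -3.33 ± 0.28 from RG to IP (adjusted p = 1.36e-09), -2.46 ± 0.38 from IP to N (adjusted p = 8.12e-05) and -5.79 ± 0.35 from RG to N, the largest of any member in control cultures. In N its mean per kb was under the olfactory level. Treated libraries had 24, 18.6 and 21.8 CPM in RG, 2.03, 1.73 and 2.18 in IP and 0.485, 0.0884 and 0.264 in N, in the same order.

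Chrd, which encodes chordin, had 9.04, 10.2 and 9.78 CPM in Ctl RG, 35.6, 22.5 and 32.4 in Ctl IP and 22.2, 17.1 and 17.3 in Ctl N. RG was the lowest without overlap, and every IP library was above every N library, the nearest of them narrowly. RG to IP gave 1.65 ± 0.17 (adjusted p = 5.14e-08), and IP to N gave -0.68 ± 0.17 (adjusted p = 0.00937), lost without Ctl IP replicate 1 (0.0659) or Ctl N replicate 2 (0.0556) or 3 (0.0562), and with the compared groups alone (0.0534). The ratio of Chrd to Nog per kb was 0.0964 ± 0.00987 in Ctl RG, 3.05 ± 0.774 in Ctl IP and 16.4 ± 14.4 in Ctl N, the last with few Nog reads. Chrd overlaps Thpo, with 1945 counts over the libraries against 8436. For Chrd, Acvr1 and Acvr1c too, the Cajal-Retzius markers were highest in the same group, and their part was not tested.

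Fst, which encodes the activin antagonist follistatin, was 16.6, 15.4 and 14.8 CPM in Ctl RG, 11.8, 11.8 and 7.26 in Ctl IP and 6.87, 2.66 and 3.46 in Ctl N. The groups did not overlap and N was the lowest, the reverse of Inhba. IP to N passed (-1.23 ± 0.32, adjusted p = 0.0118, lost without Ctl N replicate 2 at 0.0769 or 3 at 0.0712), and RG to IP passed only with the block (-0.63 ± 0.22, adjusted p = 0.021, against 0.113). Grem1, which encodes the BMP antagonist gremlin, was low, at 2.26 ± 0.755 CPM in Ctl IP against 0.378 ± 0.201 in Ctl RG. It rose from RG to IP (log2 2.47 ± 0.46, adjusted p = 0.00013), with its RG mean per kb under the olfactory level.

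Summed over each role, the level per kb showed where ligands and receptors stood in the same libraries. The 5 TGF-beta and activin ligand genes summed to 27.3 ± 4.01 CPM per kb in Ctl RG, 11.2 ± 0.282 in Ctl IP and 13.1 ± 0.408 in Ctl N (SD, n = 3 each). The 4 latent binding proteins summed to 30.5 ± 1.88, 8.25 ± 1.8 and 6.74 ± 0.627. The 6 type I receptors summed to 34.8 ± 4.02, 59.0 ± 1.49 and 56.2 ± 2.74. The sums of TGF-beta and activin ligands and of latent binding proteins were thus highest in RG, and that of type I receptors was lowest there. Single members went the other way: Inhba was lowest in RG, and Bmpr1a and Bmpr1b were highest there. The 5 antagonists summed to 16.9 ± 1.96, 7.84 ± 0.648 and 3.86 ± 0.808, and the 6 BMP ligands to 3.43 ± 0.239, 3.21 ± 0.256 and 1.25 ± 0.369, with Bmp7 leading in RG and Bmp3 in IP. Of the antagonists, Nog alone had 12.3 CPM per kb in Ctl RG, while Chrd and Grem1 were lowest there. The receptor-regulated and common Smads differed least, at 46.1 ± 4.47, 41.2 ± 2.5 and 41.2 ± 0.68. The type II and type III receptors summed to 19.2 ± 1.33, 24.5 ± 1.84 and 27.4 ± 1.43, and the 3 inhibitors to 8.03 ± 0.40, 4.42 ± 0.083 and 4.78 ± 0.208.

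**Figure D4:**
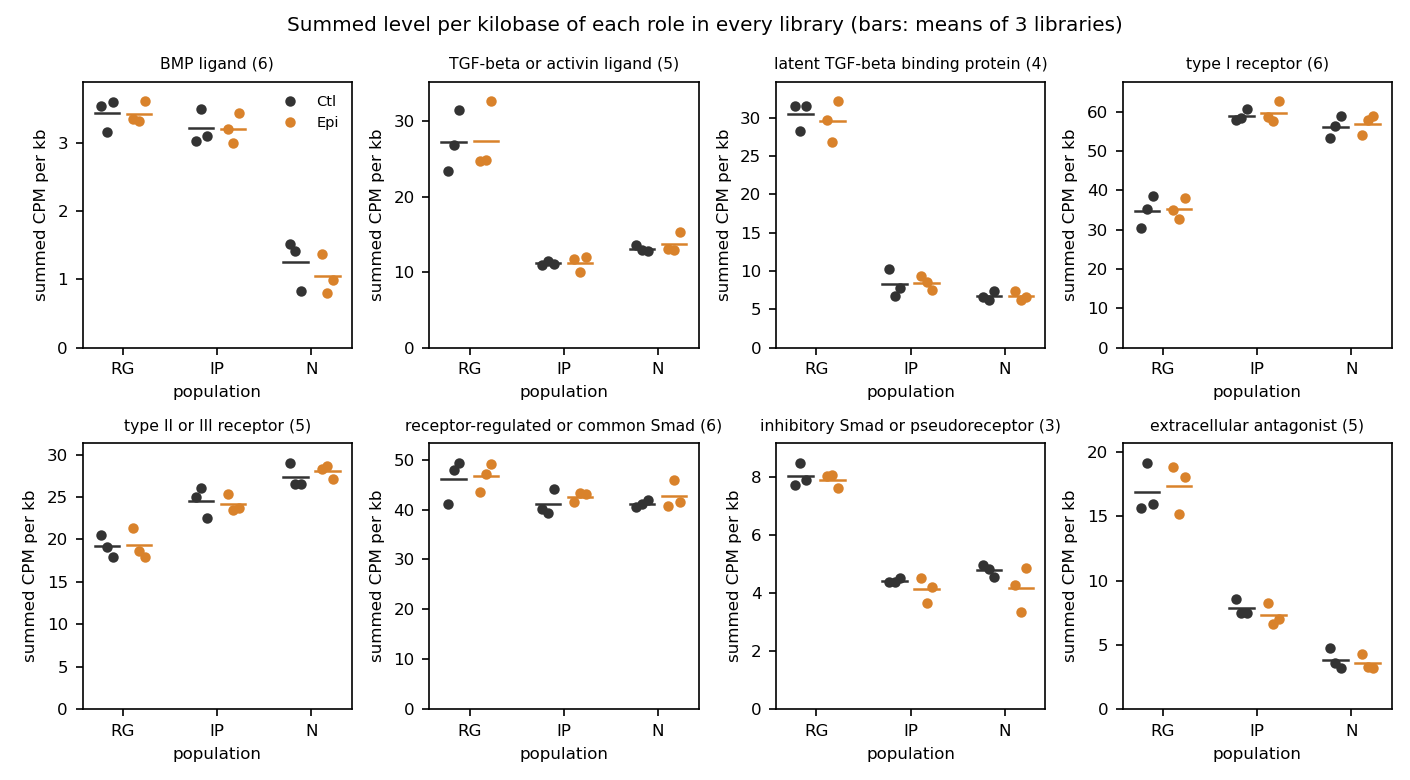
Summed CPM per kb of exon of the genes of each role, in each library, by population and treatment, with bars at the means of 3 libraries. The sum of type I receptors is lowest in RG, the sums of latent binding proteins and of antagonists are highest there, and the Ctl and Epi points of a population overlap or lie close.

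The 40 members fell into many courses over the control populations, and the share of all genes in each course was not computed. A called fall at both steps was found in 4 (Bmp7, Ltbp4, Smad3, Nog), and a called fall to IP with no call from IP to N in 9 (Tgfb2, Tgfb3, Inhbb, Ltbp1, Ltbp3, Bmpr1a, Tgfbr2, Smad5, Bambi). A called rise to IP with no call afterwards was found in 5 (Tgfbr1, Acvr1b, Acvr2a, Smad1, Grem1). Acvr1, Acvr1c and Chrd rose to IP and fell to N while staying above RG, and Bmp3 rose to IP and fell back with no call between RG and N. Bmpr1b and Smad6 were lowest in IP. Inhba rose at both steps, and Fst fell from IP to N with no call from RG to IP. Ltbp2 was called only from RG to IP (lower), and Smad7 (lower) and Acvr2b (higher) only from RG to N. No call in any of the 3 comparisons was made for 10 members: Bmp2, Bmp4, Bmp5, Bmp6, Tgfb1, Bmpr2, Tgfbr3, Smad2, Smad4 and Smad9.

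Treated cultures were compared among themselves in the same way, on separate libraries but in the same fit. Equal replicate numbers were taken to pair Ctl and Epi libraries, so the calls shared between them are no independent repeat. From RG to IP 28 members changed (42.7% of all genes), from IP to N 11 (11% of all genes), 3 higher (2.8%) and 8 lower (8.16%), and from RG to N 27 (39.7% of all genes). With the replicate block the IP to N comparison called 16 members and 16.8% of all genes, and upper-quartile scaling split its calls into 6 higher and 7 lower, in place of 3 and 8. Of the 27 control and 28 treated calls between RG and IP, 26 were shared (96.3% and 92.9%). Between IP and N 11 were shared (84.6% and 100%), and between RG and N 25 (100% and 92.6%). Every shared call had the same direction. Smad7 and Fst passed in IP against RG only in treated cultures (log2 -0.44 ± 0.17, adjusted p = 0.0456, and -0.78 ± 0.30, adjusted p = 0.0402), and Ltbp2 only in controls. In N against RG, Bmpr2 (0.40 ± 0.15, adjusted p = 0.0385) and Smad6 (-0.67 ± 0.21, adjusted p = 0.014) passed only in treated cultures. The Smad7 call was lost without Epi RG replicate 1 (0.0955), 2 (0.0875) or 3 (0.103) or Epi IP replicate 2 (0.229) or 3 (0.0664), and that of Fst without Epi RG replicate 1 (0.088) or 3 (0.145) or Epi IP replicate 2 (0.119) or 3 (0.2). Leaving out 1 Epi library also ended the calls of Smad5 in IP against RG (adjusted p = 0.0524 without Epi IP replicate 3), of Bmp7, Acvr1, Smad3, Smad6 and Fst in N against IP (adjusted p from 0.0526 to 0.168) and of Acvr1c, Bmpr2, Acvr2b and Smad6 in N against RG (adjusted p from 0.052 to 0.213). Of the treated calls, other settings ended those of Smad5 and Smad7 in IP against RG (0.0542 and 0.13 with no filter), of Bmp7 (0.0573, compared groups alone), Smad3 (0.0521, limma) and Fst (0.0537, upper-quartile scaling) in N against IP, and of Acvr1c (0.0687, limma), Bmpr2 (0.101 with RLE factors, 0.143 in DESeq2) and Acvr2b (0.0673 to 0.114 in 4 settings) in N against RG. No difference of these contrasts between control and treated cultures passed. With the block, Bmpr2 also passed in IP against RG (0.33 ± 0.10, adjusted p = 0.00754), and Bmpr1a (0.33 ± 0.10, 0.0254), Acvr1c (-0.83 ± 0.28, 0.0479) and Acvr2b (0.49 ± 0.09, 0.000223) in N against IP.

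The second question was what 24 h of EPIREGULIN did to these genes. No member passed in RG, in IP, in N, in the mean over the 3 populations, or in the 3 tests of whether the effect differed between 2 populations. The background was 0% of the 29355 genes in each of these 7 comparisons by edgeR. With the replicate block it was 0% in each as well. All intervals and unadjusted p given below are from fits without the block. Equal replicate numbers were taken to pair Ctl and Epi libraries of a population, so these values leave that pairing out. At an unadjusted p under 0.05, edgeR counted 2, 0, 0, 0, 0, 1 and 0 members in that order (1.63%, 1.82%, 2.56%, 2.86%, 1.51%, 1.74% and 1.63% of all genes). DESeq2 and limma also called 0 members in each, with 1, 0, 0, 0, 1, 1 and 0 members and 1, 1, 0, 3, 1, 1 and 0 members at an unadjusted p under 0.05.

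Bmp3 had the smallest p in RG, with 2.27, 2.35 and 1.75 CPM in Ctl and 1.76, 0.943 and 1.12 in Epi. The groups overlapped by 1 library each, and the log2 fold change was -0.70 with a 95% interval of -1.30 to -0.11 (unadjusted p = 0.0227 in edgeR, adjusted p = 1). Tgfbr3 in RG was at -0.70, also with overlap (unadjusted p = 0.0496 in edgeR, adjusted p = 1). Ltbp2 (-0.31), Tgfb1 (0.34) and Tgfbr2 (0.32) came next in RG, each with an interval that held 0. In IP the 5 members with the smallest p were Bmpr1b at -0.35 (-0.73 to 0.03), Tgfb1 at -0.56, Tgfbr2 at -0.57, Smad7 at -0.20 and Smad5 at 0.14. In N they were Smad7 at -0.31 (-0.68 to 0.06), Tgfb1 at 0.69, Bmp6 at -0.68, Acvr1 at 0.18 and Bmp5 at -0.52.

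Smad7, a known feedback target of the pathway, led the mean over the populations at -0.20 ± 0.10 (95% interval -0.41 to 0.01, unadjusted p = 0.0555, adjusted p = 1 in edgeR). Its values in Epi were 16.6, 16.3 and 16.8 CPM in RG, 13.7, 9.93 and 13.1 in IP and 10.7, 6.94 and 10.7 in N. In IP all 3 were below the Ctl libraries given above, and in RG and N the groups overlapped. Bmp3 (-0.30), Bmpr1b (-0.18), Bmp6 (-0.36) and Tgfbr3 (-0.29) followed, and none passed.

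Groups of Ctl and Epi libraries did not overlap for 0 members in RG, for Bmp5 and Smad7 in IP and for Tgfb1 and Ltbp2 in N, while this was so for 5.42%, 5.33% and 6.86% of all genes. Of the 40 members, 30 in RG, 32 in IP and 32 in N had a 95% interval within 2-fold in either direction, and in the mean over the populations 39 did. For the 23 members whose mean log2 CPM reached 3, the log2 fold changes ranged from -0.11 to 0.15 in RG, from -0.35 to 0.14 in IP and from -0.40 to 0.29 in N. A change over 2-fold therefore lay outside the interval for most members, and inside it for the others.

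**Figure D5:**
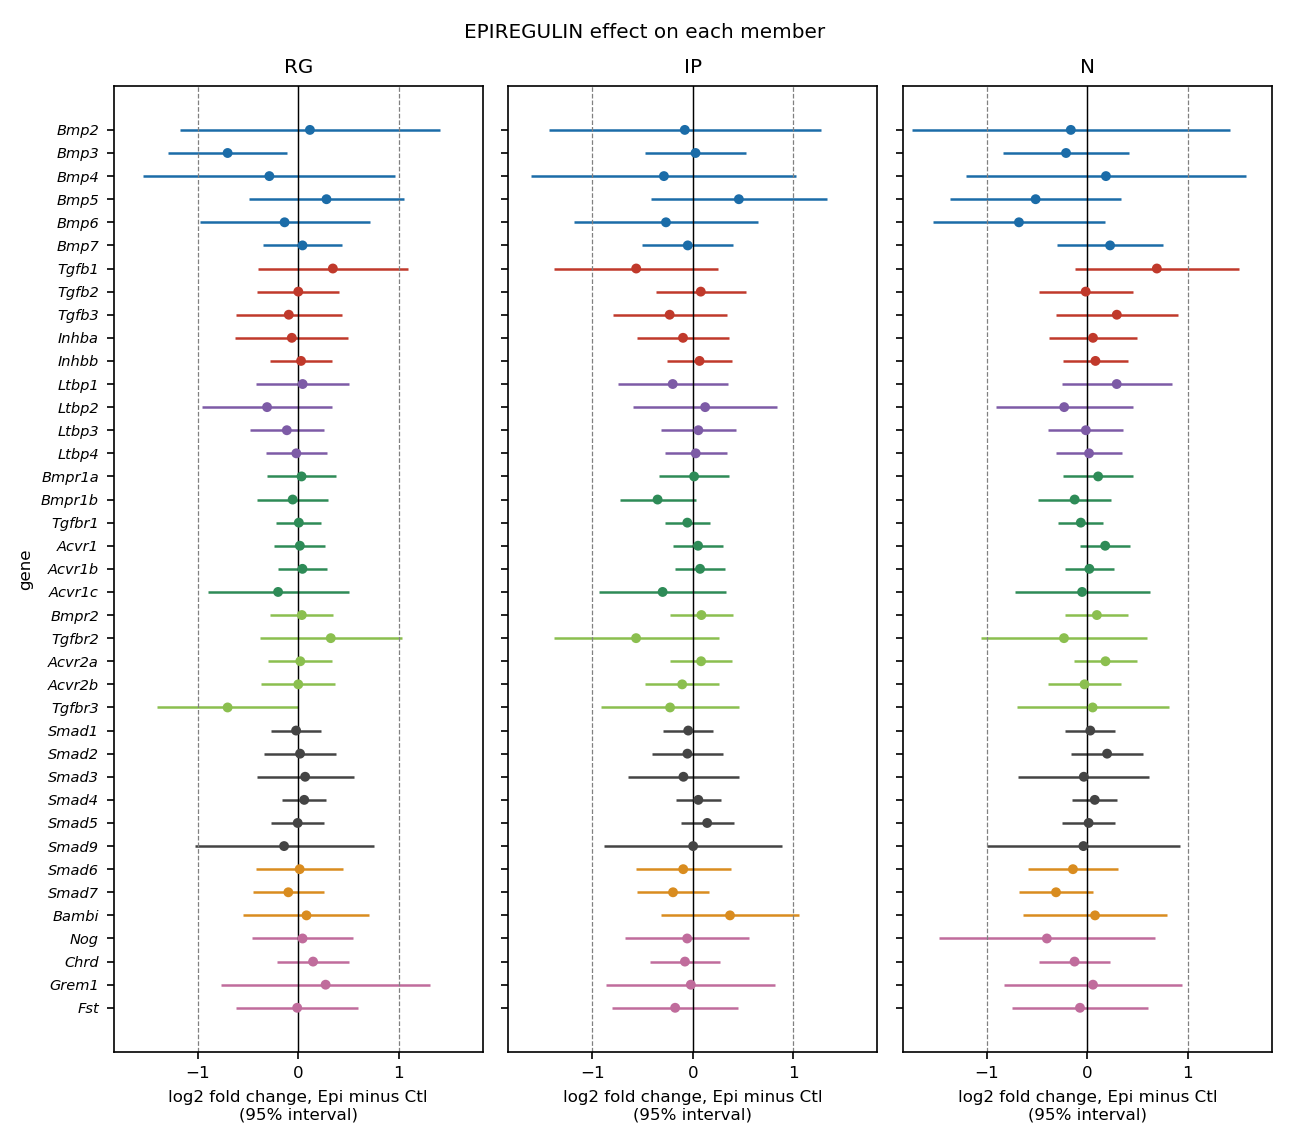
Log2 fold change of Epi against Ctl of each of 39 of the 40 genes in RG, IP and N, with 95% intervals from the edgeR fit of 3 libraries a group and dashed lines at a 2-fold change. All values lie between -0.70 and 0.69, and wide intervals belong to genes of low level.

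Genes of the pathway outside the members were read in the same control comparisons. From RG to IP, 22.7% of all genes were called higher and 18.6% lower, as given above. Of 17 other ligands of the superfamily tested, 4 were higher and 1 lower in IP than in RG, a smaller share than the 41.3% of all genes called. Gdf10, a close relative of Bmp3, averaged 0.682 ± 0.113, 5.45 ± 1.0 and 0.51 ± 0.183 CPM in RG, IP and N (3.02 ± 0.30 from RG to IP, adjusted p = 1.73e-08). It had the course of Bmp3, highest in IP. Gdf15, a stress-induced ligand, was highest in RG at 12.7 ± 3.93 CPM and changed by -3.11 ± 0.37 to IP. Of 8 other receptors and co-receptors, 2 were higher and 2 lower in IP, near the share of all genes. Rgmb and Neo1, a BMP co-receptor and its partner neogenin, rose by 1.75 ± 0.13 and 1.37 ± 0.12, while Rgma, the paralog of Rgmb, changed by -0.96 ± 0.16.

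Of 20 other secreted antagonists and modulators, 5 were higher and 5 lower in IP than in RG (41.3% of all genes called), and 2 were higher and 6 lower in N than in IP (2.6% and 7.74% of all genes). Bmper, which binds BMPs, averaged 22.9 ± 3.87 CPM in Ctl RG and 1.64 ± 0.297 in Ctl IP (-3.78 ± 0.24, adjusted p = 9.61e-12). Fstl1, a follistatin relative, went from 229.8 ± 29.8 to 64.4 ± 12, and Tmeff1, a membrane protein with follistatin domains, from 37.8 ± 8.59 to 212 ± 38.4. Of 18 genes for activation of latent TGF-beta and BMP precursors, 6 were higher and 7 lower in IP, beside 22.7% and 18.6% of all genes. Itgb8, whose integrin releases TGF-beta from its latent form, fell from 71.4 ± 14.6 CPM in Ctl RG to 7.16 ± 0.531 in Ctl IP (-3.31 ± 0.17, adjusted p = 3.71e-13), and its partner Itgav changed by -2.36 ± 0.20. Tgfb2, Ltbp1, Ltbp3 and Ltbp4 fell in the same comparison. Fbn2, a fibrillin of the matrix, rose by 2.03 ± 0.14.

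Of 23 intracellular Smad regulators and cofactors, 11 were higher and 4 lower in IP than in RG, beside 22.7% and 18.6% of all genes. Nedd4l, a ubiquitin ligase that acts on Smads and receptors, rose from 91.1 ± 3.51 CPM to 342 ± 7.12 (1.91 ± 0.09, adjusted p = 9.51e-14). The Smad-binding repressors Zeb2 and Zeb1 went in opposite directions, at 2.27 ± 0.13 and -1.80 ± 0.16. Tgif1, a corepressor of Smad2 and Smad3, fell by 2.65 on the log2 scale. Of 15 genes known as targets of the BMP Smads, 3 were higher in Ctl IP and 7 were lower (22.7% and 18.6% of all genes). Their median log2 change was -0.96 beside -0.06 for all genes. From Epi RG to Epi IP, 4 were higher and 6 lower (23.2% and 19.6% of all genes). There the median was -0.077 beside -0.073 for all genes, so the low control median was not seen in treated cultures. Id4 averaged 577 ± 78.8 and 42.4 ± 4.31 CPM in Ctl RG and Ctl IP, and Id2 33.8 ± 5.75 and 456 ± 49.1, so members of this family of bHLH inhibitors moved in opposite directions. Of 16 genes known as targets of TGF-beta or activin, 2 were higher in Ctl IP and 7 were lower (22.7% and 18.6% of all genes), with a median of -0.74. From Epi RG to Epi IP, 3 were higher and 8 lower (23.2% and 19.6% of all genes), with a median of -0.58. Ccn1 fell by 5.18 and Fn1, fibronectin, by 2.26 on the log2 scale. Several of these genes, such as Id4 and Hes1, are also markers of radial glia. In each of the 7 treatment comparisons, 0 genes of these 7 lists passed in edgeR.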

How the data were processed

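RNA from 18 libraries of 3 populations and 2 treatments, with 3 biological replicates per group per the labels, was analysed. RNA was extracted with the Quick-RNA FFPE kit and amplified by SmartSeq2, which is not stranded and has no molecular identifiers, per the labels' protocols, so PCR copies are counted. The deposited table gives whole, unnormalized read counts for each gene and library. Per the submitters' processing notes, bcl2fastq 2.20.0, cutadapt 2.6 and featureCounts 2.0.1 were used on GRCm39; an aligner was not given in the sources used here. Out of 55508 rows, 92 were spike-ins (at most 7 counts per library) and were left out. Strand and gene type stood under each other's header words, seen from the values. Values in the characteristics were shifted by a tag and matched the titles used for grouping.

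Counts were tested in R 4.3.3 with edgeR 4.0.16: filterByExpr with the 6 groups (29355 genes), TMM factors, and 1 quasi-likelihood fit of 6 group means over all 18 libraries, with 13 two-sided contrasts and Benjamini-Hochberg adjustment over all genes at 0.05. CPM is the count scaled by library total and TMM factor, and values after ± are SD for levels and SE for log2 fold changes. Level per kb divides CPM by the union of exons in GENCODE M39. Sequence windows were read from GRCm39 with pysam 0.24.0. The members, the lists and the rule for naming genes were chosen with earlier results of these data known. The rule accounts for all 40 members, and all enter the counts, but the values of 1 are not reported here. It names, per control population comparison, the 6 largest called changes each way among members whose mean log2 CPM reached 1, the highest member per kb of each role, the 5 smallest p per treatment comparison where none is called, and up to 4 called genes per pathway list.

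Whether equal replicate numbers pair libraries was checked by correlation across 11711 genes (mean log2 CPM over 3, group means removed). Genes are no independent replicates. Equal numbers correlated at 0.183 to 0.608 for RG, at 0.174 to 0.591 for IP and at 0.198 to 0.650 for N between Ctl and Epi. They correlated at 0.264 to 0.597 between Ctl RG and Ctl IP, at 0.162 to 0.524 between Ctl IP and Ctl N, at 0.243 to 0.540 between Epi RG and Epi IP and at 0.159 to 0.635 between Epi IP and Epi N. Unequal numbers correlated at most at 0.0988 in these 7 pairs of groups, and there the numbers were taken to pair libraries. RG against N is given below.

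The settings varied were the factors (RLE, upper-quartile), the filter (none or a mean log2 CPM of at least 1), the robust fit, DESeq2 1.42.0, limma 3.58.1 (voom with quality weights), the compared groups alone, the replicate number as a block, and leaving out each library. The scripts were tested on simulated data.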

Additional observations from a re-analysis of the deposited data

How the results depend on the processing

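Of 131 called member results, 107 passed under every setting and 24 lost the call under at least 1, and 3 results, none of them called, changed sign. Leaving out each library in turn gave 25 to 27 members called in Ctl IP against Ctl RG, 8 to 12 in Ctl N against Ctl IP (8 without Ctl N replicate 3), 24 to 25 in Ctl N against Ctl RG, 26 to 28, 8 to 10 and 24 to 27 in the same order in treated cultures, and 0 to 0 in the 7 treatment comparisons. The sign changes were in Epi against Ctl: Ltbp2 in RG ranged from -0.52 to 0.076 (0.076 without Ctl RG replicate 1), Smad5 in IP from -0.016 (without Ctl IP replicate 2) to 0.28, and Bmp5 in N from -0.85 to 0.21 (without Ctl N replicate 1), on the log2 scale. For Ctl N against Ctl IP the other settings gave between 10 members (limma) and 17 (replicate block), with 15 in DESeq2, 14 with RLE factors and 11 with the compared groups alone. Upper-quartile factors moved the median log2 change of all genes in Ctl IP against Ctl RG from -0.06 to -0.18, and the share of higher calls of all genes in Ctl N against Ctl IP from 25.1% to 37.1% (20.5% with RLE), and in Epi N against Epi IP from 25.6% to 43.0% (19.6% with RLE). The cause was not tested. The block moved the calls of all genes from 3035 to 4652 in Ctl N against Ctl IP and from 3216 to 4917 in Epi N against Epi IP. Equal numbers of RG and N correlated at 0.0780 to 0.572 in Ctl and at 0.0996 to 0.468 in Epi. Unequal numbers correlated at most at 0.0721 and 0.0587, so equal ones stood above them there too, narrowly at the lowest. The lowest equal values were smaller than in the other pairs of groups, so the block results for N against RG are given apart. The block called 28 members in Ctl N against Ctl RG (Bmpr2, Smad4 and Smad6 added) and 29 in Epi N against Epi RG (Smad2 and Smad4 added). It changed no call beside these and those given with the results. The stricter filter left 31 of the 40 members. The fit with the compared groups alone was not run for the mean over the populations, where it is the same fit. With 3 libraries a group, the 95% intervals of some members of low level reached past 2-fold in Epi against Ctl.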

Other observations

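Between IP and N of control cultures, 7.74% of all genes were called lower and 2.6% higher in N. In the pathway lists of genes outside the members, 3 of 17 other ligands, 1 of 8 receptors and co-receptors, 6 of 20 antagonists and modulators, 4 of 18 activation genes and 1 of 23 Smad regulators were lower, and 0, 0, 2, 1 and 2 of them higher. The ligands were Gdf10 (-3.43 ± 0.32, adjusted p = 1.19e-07, edgeR here and below), Gdf5, known from joints (-2.08 ± 0.39, adjusted p = 0.000624), and Lefty2, an inhibitor of nodal (-1.52 ± 0.42, adjusted p = 0.0201). Smoc1, a matrix protein known to counter BMPs, averaged 30.2 ± 2.26, 9.75 ± 2.35 and 1.73 ± 0.772 CPM in Ctl RG, IP and N (adjusted p = 6.8e-07 for N against IP). Kcp, a chordin-like protein, had its highest mean in IP, at 34.6 ± 15.6 CPM against 5.79 ± 0.155 in Ctl RG and 13.8 ± 2.9 in Ctl N. Pcsk5, a protease that cuts ligand precursors, went from 32.4 ± 5.56 CPM in Ctl IP to 4.21 ± 2.59 in Ctl N (-2.93 ± 0.29, adjusted p = 2.24e-07).

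Of 15 targets of the BMP Smads outside the members, 3 were higher and 2 lower in N than in IP, beside 3 higher and 7 lower in IP than in RG. Id2 rose again (0.43 ± 0.14, adjusted p = 0.0425), and Id4 rose by a like amount (0.49 ± 0.14, adjusted p = 0.0197) after its fall from RG. Of 16 TGF-beta and activin targets, 0 were higher and 2 lower in N: Cdkn1a, a cell cycle inhibitor (-1.44 ± 0.14, adjusted p = 1.31e-07), and Ccn1 (-1.35 ± 0.30, adjusted p = 0.00304).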
